A study of Mus musculus with 61 samples.

Results

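Livers of Cast mice were compared with livers of NZO mice across all measured genes. Both strains belong to the founders of the Diversity Outbred stock, an outbred mouse population, and every liver here came from the diet group of the study, fed fat and sugar in excess (HFHS diet, labelled as 45% fat). Polyadenylated RNA of whole liver was sequenced. All 7 Cast libraries (numbered 1 to 3 and 5 to 8) and all 8 NZO libraries (numbered 1 to 8) were taken, 15 of the 60 libraries in the count table, and 16165 of its 18754 genes passed a filter on low counts and were tested. Apart from the strain the labels give these libraries no other difference, and they give no sex, age, weight, fasting state or time of collection. Both strains are inbred, so each stands for a single genotype.

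Cast is a wild-derived strain of the subspecies castaneus that is known to stay lean. NZO, New Zealand Obese, is a strain known for polygenic obesity, insulin resistance and fatty liver. The liver makes glucose between meals, turns surplus sugar into fatty acids and triglyceride, makes cholesterol and bile acids, clears drugs and hormones, and secretes most plasma proteins. Insulin and dietary sugar raise fat and cholesterol synthesis there through the transcription factors SREBP and ChREBP, whereas insulin holds back glucose production through FoxO factors. Resident macrophages called Kupffer cells, other immune cells, endothelial and stellate cells share the tissue with the hepatocytes.

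Levels are CPM, counts per 1000000 counts of a library, after scaling by the trimmed mean of M-values (TMM). Where 3 CPM values stand for a strain, they are its lowest, median and highest library. A log2 difference is Cast minus NZO, followed by its approximate standard error. That error is the size of the difference divided by the square root of the test's F statistic. It is rough for genes with few reads in a strain. An adjusted p is that of edgeR's quasi-likelihood test with Benjamini-Hochberg adjustment over all genes tested. A gene is said to be called, higher or lower at an adjusted p of at most 0.05.

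The 15 livers fell into the strains of their labels. The first principal component of log2 CPM, which held 51.9% of the variance, ran between -69.8 and -40.4 in Cast livers and between 33.9 and 56.3 in NZO livers. The correlation of log2 CPM over genes, which are not independent replicates, was 0.938 to 0.992 between Cast libraries, 0.938 to 0.996 between NZO libraries and 0.881 to 0.942 across the strains. Library totals were 26711284 to 38180366 estimated counts in Cast and 22384024 to 69169911 in NZO. The nuclear ribosomal RNA gene Rn18s-rs5 took 2.55% ± 1.77 of all counts in Cast and 10.9% ± 4.06 in NZO (SD, n = 7 and 8; two-sided exact permutation test, p = 0.000466, adjusted over 5 library measures 0.00194), and leaving it out gave 9622 calls in place of 9531. By the same test the 10 most abundant genes took 18.2% of counts in Cast and 28.4% in NZO (adjusted p = 0.00194), 17335 and 17933 genes had a count (0.00363), and the mitochondrial share was 7.59% and 6.41% (0.0482). Library totals did not pass it (0.335). Hepatocyte genes such as Alb, the gene of serum albumin, were high in every library. The adipocyte genes Adipoq, Lep and Plin1 and the pancreas genes Prss2 and Ctrb1 were not among the genes analysed here. The pancreas gene Cela1 was at 0.0666 to 1.49 CPM in Cast and 1.25 to 7.01 CPM in NZO, and the muscle genes Acta1 and Ckm reached 38.5 and 27.3 CPM in a Cast library, against 8.68 and 4.90 CPM in an NZO library.

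Cast 5, Cast 6 and NZO 8 stood apart from the other livers of their strain. The second principal component, with 14.6% of the variance, placed them at 45.5, 40.8 and 63.1, against -30.6 to 0.275 in the other Cast livers and -11.2 to 11.8 in the other NZO livers. Genes of the acute phase, the liver's secretory answer to inflammation, had the highest loadings on it, led by Saa2, Saa1, Orm2 and Lcn2. At its other end stood the female-biased Cyp2c69 and Xist, and all 3 libraries were of low Xist. The other 5 livers of low Xist lay between -28.3 and 11.8. Saa1, an acute phase apolipoprotein, was at 571 CPM in Cast 5, 3873 in Cast 6 and 7366 in NZO 8. Cast 3 was high for Saa1 too, at 1126 CPM, while Cast 1, 2 and 8 lay between 1.25 and 2.62 CPM and Cast 7 at 76.8 CPM. Results are given with these 3 libraries, and again without all 3 where that moves a list's count of calls by over 1.5 times or where a whole list was called. Xist, which coats an inactive X chromosome, was at 809 to 993 CPM in Cast 1, 2 and 3 and at 1318 to 1421 CPM in NZO 1 to 4, and at 0.193 to 3.94 CPM in the other 8 livers, so that both strains held livers of either kind.

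**Figure D1:**
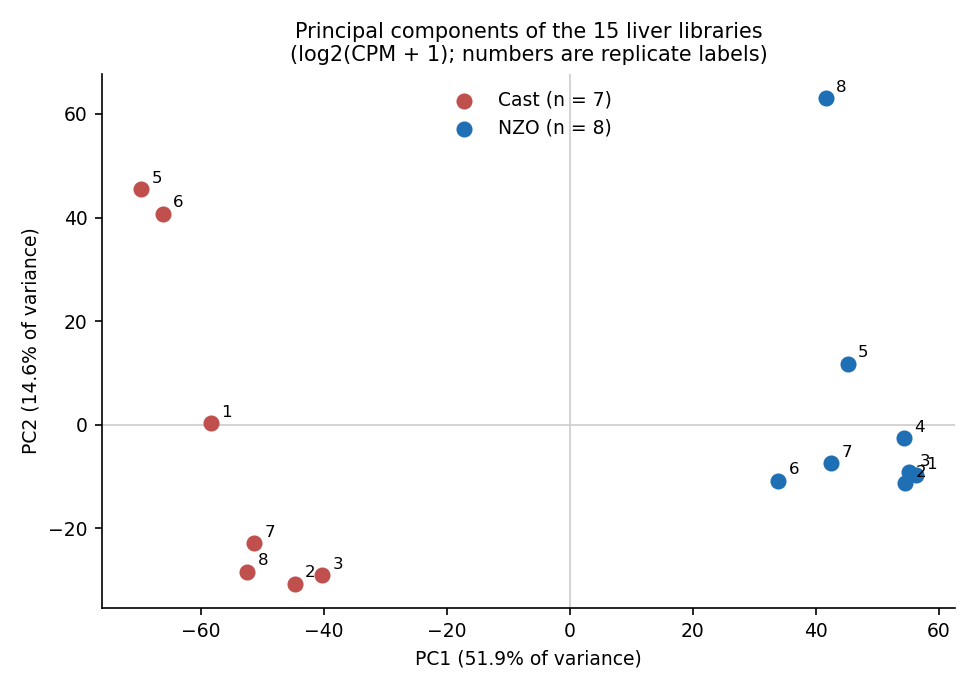
Each point is a liver library, placed by its scores on the first principal component (x axis, arbitrary units) and the second (y axis, arbitrary units) of log2 CPM, with Cast and NZO in separate colours. Cast lies below -40 and NZO above 33 on the first component, and Cast 5, Cast 6 and NZO 8 lie above 40 on the second.

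Of the genes tested, 9531 were called, which is 59.0% of them. Cast was higher for 4593 (28.4% of the genes tested) and lower for 4938 (30.5%). The median size of a called difference was 0.78 on the log2 scale, and the middle 50% of sizes ran between 0.44 and 1.61. At least 2-fold differences were called for 3942 genes (24.4%), of which 1310 (8.10%) were higher and 2632 (16.3%) lower in Cast. The ranges of the strains did not overlap for 2674 genes (16.5%): all Cast livers lay above all NZO livers for 1151 (7.12%) and below them for 1523 (9.42%). Differences of at least 3 on the log2 scale numbered 896, 260 higher and 636 lower. Without Cast 5 there were 9199 calls, without NZO 8 there were 9425, without both 9079, and without Cast 5, Cast 6 and NZO 8 there were 8787, 8032 of them among the original calls. Each gene list below is read against the background of 28.4% called higher and 30.5% called lower. The median difference over all genes tested was -0.01. That background changed with level. Among the 10% of genes of lowest level 10.8% were called higher and 29.6% lower. Genes of 0.796 to 2.08 CPM had 20.5% higher and 40.6% lower. Among the 10% of highest level the shares were 36.1% and 25.5%. The lists were not matched to genes of their own level.

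**Figure D2:**
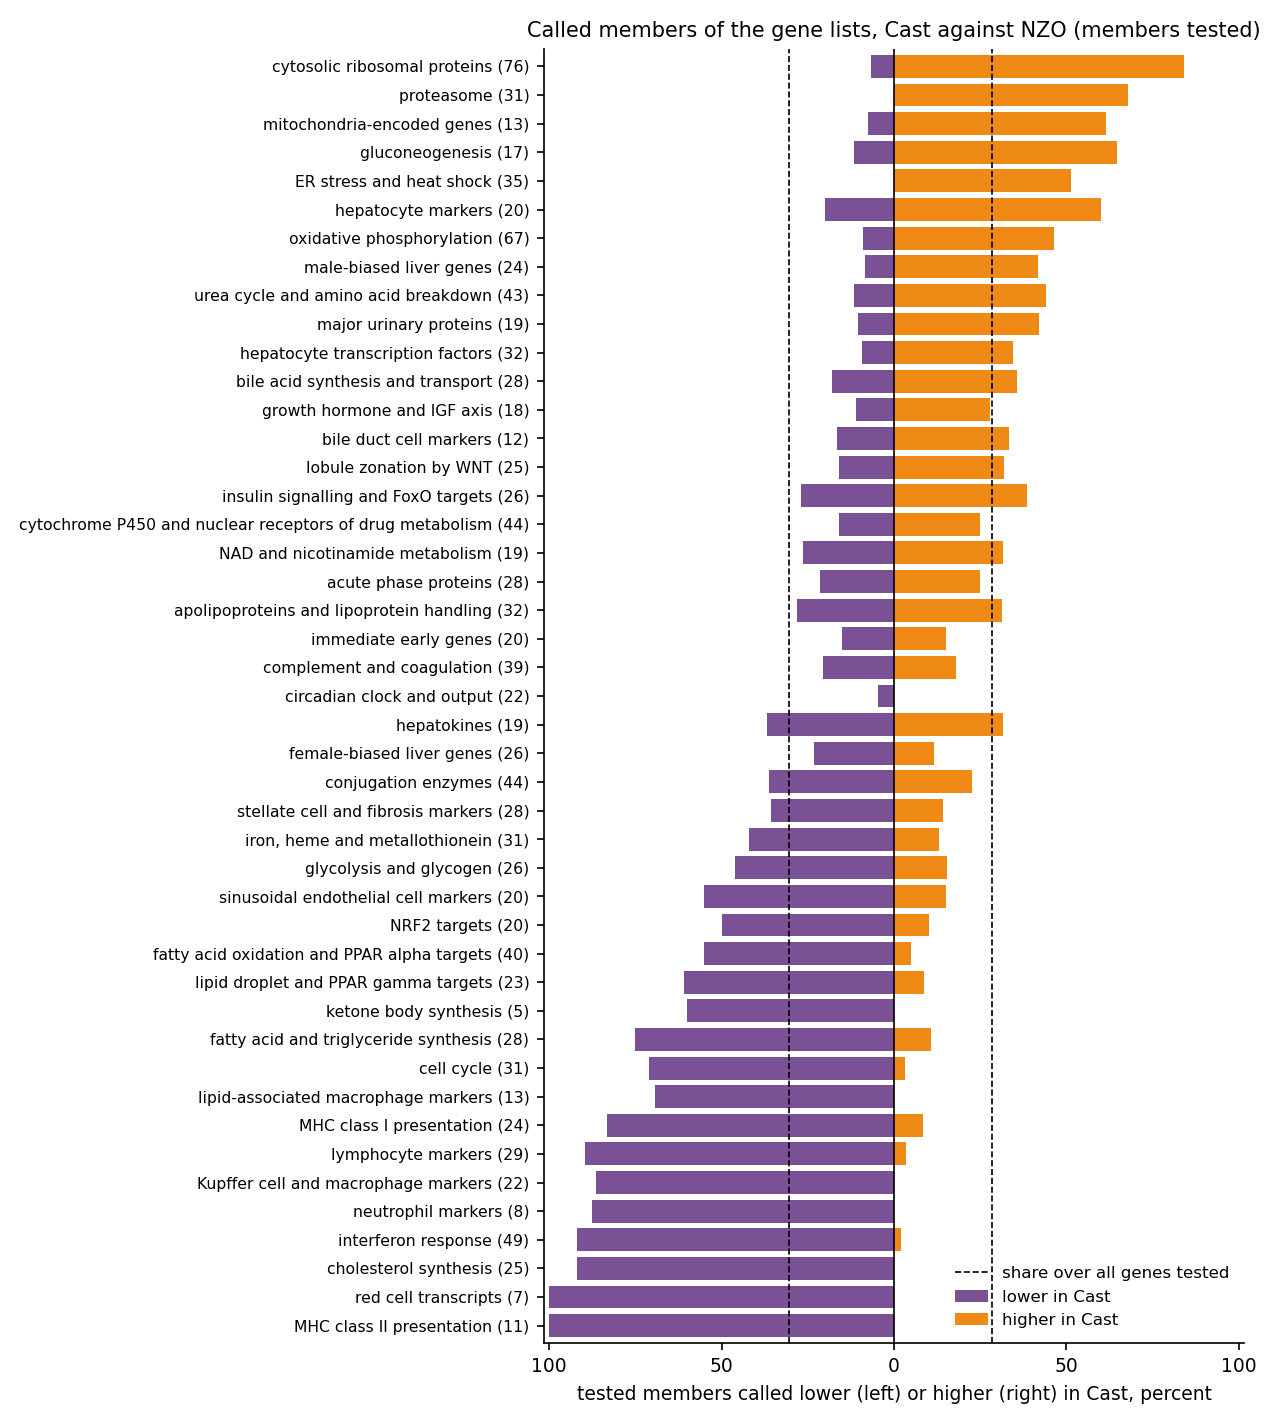
For each gene list, bars to the right give the percent of its tested members that were called higher in Cast and bars to the left the percent called lower (x axis, percent of tested members); dashed lines mark the share over all genes tested. The lists of interferon response, cholesterol synthesis, MHC class II and red cell transcripts lie almost wholly on the lower side, and those of ribosomal proteins and the proteasome on the higher side.

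Genes induced by interferon, the cytokines of antiviral defence, were lower in Cast almost throughout the list. Of 49 tested, 45 were called lower and 1 higher, the list's median difference was -1.73, and in 18 of them every Cast liver lay below every NZO liver. The lower genes spanned the sensors, the transcription factors and the effectors of the response. Without Cast 5, without NZO 8 or without all 3 libraries that stood apart, 45 were again called lower. The number called higher was 2 without Cast 5, without Cast 6 or without all 3.

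Among the transcription factors, Irf7, which amplifies interferon production, was at 1.22, 2.69 and 9.49 CPM in Cast livers, against 18.4, 40.5 and 44.4 CPM in NZO livers. The ranges did not overlap, and the difference was -3.37 ± 0.31, adjusted p = 1.19e-13. Irf9, part of the complex that carries the interferon signal to the nucleus, differed by -0.97 ± 0.18. Stat2, which acts with Irf9, was not called (62.3 and 54.2 CPM on average in Cast and NZO, adjusted p = 0.192), but was called higher without Cast 5 or without Cast 6, at a log2 difference of 0.32 each.

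The immunity-related GTPase Iigp1, which attacks the vacuoles of intracellular parasites, gave one of the widest gaps of the whole comparison. It was at 0, 0.399 and 0.879 CPM in Cast livers, against 258, 315 and 427 CPM in NZO livers, a difference of -9.50 ± 0.41, adjusted p = 2.83e-27. The highest Cast liver lay far below the lowest NZO liver. Guanylate-binding proteins, which act on the same vacuoles, went the same way: 2 reads of Gbp6 were counted over all Cast livers, against 0.758, 9.62 and 17.7 CPM in NZO livers, and Gbp10, at 0, 0.0596 and 0.181 CPM in Cast livers, against 3.60, 49.3 and 83.1 CPM in NZO livers, differed by -9.32 ± 0.71. Gbp7 and Gbp3 differed by -3.16 ± 0.36 and -2.99 ± 0.41. The GTPases Irgm1 and Irgm2 differed less, by -1.24 ± 0.19 and -1.73 ± 0.30. Whether Cast reads were aligned to a Cast genome is not given in the sources used here. The part of alignment in the near absence of Iigp1, Gbp6 and Gbp10 in Cast was not tested. Reads of such related genes could also have been split.

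Isg15, a ubiquitin-like modifier, was at 0.0964, 0.298 and 1.83 CPM in Cast livers, against 2.91, 5.56 and 7.33 CPM in NZO livers, with no overlap and a difference of -3.25 ± 0.37, adjusted p = 1.26e-10. Ifit1, which binds foreign RNA caps, was at 0.673, 1.14 and 5.36 CPM in Cast livers, against 4.01, 13.6 and 19.3 CPM in NZO livers, with overlapping ranges (-2.88 ± 0.43, adjusted p = 1.08e-07). Oas1a, which makes the signal that activates RNase L, was at 0.533, 0.964 and 1.62 CPM in Cast livers, against 2.69, 6.87 and 8.03 CPM in NZO livers, without overlap (-2.59 ± 0.29, adjusted p = 7.04e-11). Its neighbour Oas1b was not called (adjusted p = 0.713). Ly6e, a membrane protein chosen after its values were seen, was at 12.5, 43.2 and 51.9 CPM in Cast livers, against 399, 503 and 704 CPM in NZO livers, a difference of -3.89 ± 0.28 (adjusted p = 1.90e-17). Bst2, the tether of budding virus particles, did not pass the test either, at 56.5 ± 17.2 CPM in Cast and 58.9 ± 15.3 CPM in NZO (SD, n = 7 and 8).

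Mx2 went against the rest of the list. This dynamin-like antiviral GTPase was at 14.3, 39.9 and 290.2 CPM in Cast livers, against 0, 0.0137 and 0.0632 CPM in NZO livers, a difference of 11.70 ± 0.63, adjusted p = 5.32e-23. It was detected in every Cast liver and was at or near 0 in every NZO liver, with 5 reads over all 8. Cast 5 and Cast 6 were the highest, at 290.2 and 88.5 CPM. Mx1, the neighbouring gene of the family, was at 0.399, 1.03 and 4.76 CPM in Cast livers, against 5.80, 13.4 and 15.3 CPM in NZO livers and differed in the other direction, by -2.88 ± 0.42, without overlap.

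The promoters of the list were searched for the interferon-stimulated response element in RefSeq promoter sequence of GRCm38.p6, which is that of C57BL/6J and of neither strain compared here. With the letters GAAA, NN and GAAA in a row (N is any base) on either strand in the 250 bases before the start site, 17 of the 35 list genes with a promoter in the table had a match (48.6%), against 978 of all 32851 promoter windows (2.98%). Bst2 and Stat2, which were not called, were among the 17. A gene had a match if any of its windows did, whereas the 32851 windows were counted singly, so the shares are not of like units. The stretches of 3 promoters are shown because their genes were among the lower ones; capitals mark the matches, each stretch is written in the direction of transcription, and overlapping matches run together. The stretch of Isg15 is at chr4:156200845-156200914 on the minus strand, that of Ifit1 at chr19:34640774-34640843 on the plus strand and that of Oas1a at chr5:120907526-120907595 on the minus strand.
Isg15: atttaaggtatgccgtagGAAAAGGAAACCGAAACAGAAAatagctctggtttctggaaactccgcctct
Ifit1: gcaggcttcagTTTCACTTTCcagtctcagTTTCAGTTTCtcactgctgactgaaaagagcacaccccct
Oas1a: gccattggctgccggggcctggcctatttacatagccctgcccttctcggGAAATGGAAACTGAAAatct
A match is a description of these letters and not evidence of a bound factor.

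Genes of antigen presentation were lower in Cast as well. All 11 tested genes of MHC class II, which presents antigen to helper T cells, were lower (9 without the 3 libraries), with a median difference of -1.59. H2-Eb1, a class II beta chain, was at 1.84, 12.9 and 19.7 CPM in Cast livers, against 20.3, 56.1 and 122 CPM in NZO livers (-2.41 ± 0.40, adjusted p = 9.42e-07), and Cd74, the invariant chain, was at 7.12, 47.9 and 62.3 CPM in Cast livers, against 41.2, 109.8 and 221 CPM in NZO livers (-1.59 ± 0.34, adjusted p = 6.39e-05). The H2-Eb1 ranges did not overlap, whereas those of Cd74 did. Of 24 tested genes of MHC class I presentation, which displays peptides on all nucleated cells, 20 were lower and 2 were higher (1 without the 3 libraries), with a median of -1.15. B2m, the shared light chain, differed by -0.76 ± 0.11, and the immunoproteasome subunit Psmb8 by -1.63 ± 0.24. H2-T22 was at 3.40, 6.23 and 8.69 CPM in Cast livers, against 71.8, 95.3 and 107 CPM in NZO livers and its near relative H2-T10 at 3.96, 7.69 and 11.4 CPM in Cast livers, against 1.74, 2.19 and 3.80 CPM in NZO livers, differences of -3.95 ± 0.16 and 1.68 ± 0.18 in opposite directions. MHC genes are near copies of one another and differ between strains, so reads could have been split between them in ways the counts do not show.

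Genes of the liver's immune cells were lower in Cast. In bulk RNA fewer cells of a type and less RNA per cell cannot be told apart. Of 22 tested markers of Kupffer cells and macrophages 19 were lower and 3 were not called (median -1.64), and their summed level was 406 to 595 CPM in Cast and 537 to 2685 CPM in NZO. Adgre1, which encodes the macrophage antigen F4/80, was at 3.02, 5.71 and 6.92 CPM in Cast livers, against 15.7, 28.2 and 64.2 CPM in NZO livers, without overlap (-2.59 ± 0.33, adjusted p = 1.40e-09). Csf1r, the receptor that macrophages need to live, was at 13.1, 22.8 and 25.003 CPM in Cast livers, against 37.9, 64.3 and 165 CPM in NZO livers (-1.87 ± 0.25, adjusted p = 7.40e-09), again without overlap. Clec4f and Timd4, found on resident Kupffer cells, differed by -0.62 ± 0.25 and -1.98 ± 0.32. The call of Clec4f ended when any of Cast 5, Cast 6 or NZO 2, 3, 5 or 8 was left out. Cd163 and Clec1b were not called (adjusted p = 0.396 and 0.381). Folr2, a folate receptor of resident macrophages, had the widest gap of the list, at 0.0737, 0.181 and 0.421 CPM in Cast livers, against 6.81, 11.4 and 17.3 CPM in NZO livers (-5.75 ± 0.34, adjusted p = 4.21e-21).

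Markers of macrophages that gather around lipid were lower for 9 of 13 tested genes and not called for the other 4 (median -1.78; 1 higher without NZO 8 or without the 3 libraries). Ccr2, the receptor by which monocytes enter tissue, was at 0, 0.328 and 0.482 CPM in Cast livers, against 1.57, 4.13 and 34.2 CPM in NZO livers, without overlap (-4.80 ± 0.55, adjusted p = 1.19e-10). Trem2 and Gpnmb, which lipid-laden macrophages express, differed by -2.03 ± 0.52 and -1.78 ± 0.53 at levels below 5 CPM. Of 29 tested lymphocyte markers 26 were lower and 1 was higher (median -2.48), at median levels under 1 CPM in NZO for 25 of the 29. Ptprc, the pan-leukocyte antigen CD45, was at 4.76, 5.54 and 7.63 CPM in Cast livers, against 13.6, 26.6 and 95.1 CPM in NZO livers (-2.48 ± 0.30, adjusted p = 5.42e-10), and Nkg7 of natural killer and cytotoxic T cells had no read in any Cast liver, against 0.0459, 0.485 and 4.93 CPM in NZO livers, at least 64.5-fold lower by the limit of 3 counts over the Cast livers together, and at least 29.7-fold lower without NZO 8. Fitted on the 15 libraries alone, 7 lymphocyte markers were called lower. That fit tested 14268 genes in place of 16165, and a marker that it did not test counts as not called. Cd4, the co-receptor of helper T cells, was the 1 marker called higher, at 0.129, 0.964 and 8.99 CPM in Cast livers, against 0.375, 0.677 and 1.64 CPM in NZO livers. Cast 7 and Cast 8 were the high livers, and without either of them it was not called. Without NZO 8 or without the 3 libraries, 2 lymphocyte markers were higher.

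The summed level of 8 tested neutrophil genes was 3.79, 5.08 and 312 CPM in Cast livers, against 3.31, 26.2 and 3090.0 CPM in NZO livers, and NZO 8 was the highest. Of the 8, 7 were called lower in Cast. Without NZO 8 the counts were 1 lower and 1 higher, and without the 3 libraries 3 were lower. Lcn2, which binds iron carriers of bacteria and is also made by hepatocytes, was at 297 CPM in Cast 6 and 1139 CPM in NZO 8; it was not called (adjusted p = 0.184), and was called lower without Cast 6. Ngp, a protein of neutrophil granules, was at 566 CPM in NZO 8, whereas the other 7 NZO livers were between 0.0459 and 0.742 CPM and the Cast livers between 0 and 0.362 CPM. S100a8, a subunit of calprotectin, was at 525 CPM in NZO 8, against 0.238, 0.386 and 3.78 CPM in Cast livers.

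Cell cycle genes were lower in Cast for 22 of 31 tested, and 1, E2f7, was higher (median -1.53). Mki67, the marker of dividing cells, was at 0.150, 0.466 and 1.38 CPM in Cast livers, against 7.40, 16.4 and 97.6 CPM in NZO livers, without overlap (-5.22 ± 0.51, adjusted p = 5.68e-13). Top2a and Cdk1, which untangle chromosomes and drive mitosis, differed by -4.30 ± 0.52 and -3.99 ± 0.49. Mcm2, of the replicative helicase, differed by -1.48 ± 0.23, and Pcna, the clamp of DNA polymerase, was at 19.3 CPM in Cast and 19.4 CPM in NZO (adjusted p = 0.946). E2f7, which represses the cycle and supports the polyploid hepatocyte, was at 2.65, 7.55 and 16.8 CPM in Cast livers, against 0.821, 1.13 and 3.25 CPM in NZO livers (2.70 ± 0.38, adjusted p = 2.26e-08). The number called higher was 3 without NZO 8 or without Cast 3, and 2 without any of Cast 2, 7 and 8 or without the 3 libraries.

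All 7 tested red cell transcripts were lower (6 without the 3 libraries), among them Hba-a1, an alpha globin, at 0, 0.104 and 0.306 CPM in Cast livers, against 46.9, 97.4 and 174 CPM in NZO livers. Its near-identical copy Hba-a2 was at 31.1, 105 and 133 CPM in Cast livers, against 81.6, 154 and 273 CPM in NZO livers, and the sum of both was 31.2 to 133 CPM in Cast and 128.7 to 447 CPM in NZO. The means of the sum differed by -1.43 on the log2 scale, against -9.74 for Hba-a1 alone. Slc4a1, the anion exchanger of the red cell membrane, differed by -4.59 ± 0.54. These markers moved in the same direction as those of the immune cells, and their part in the other differences was not tested.

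**Figure D3:**
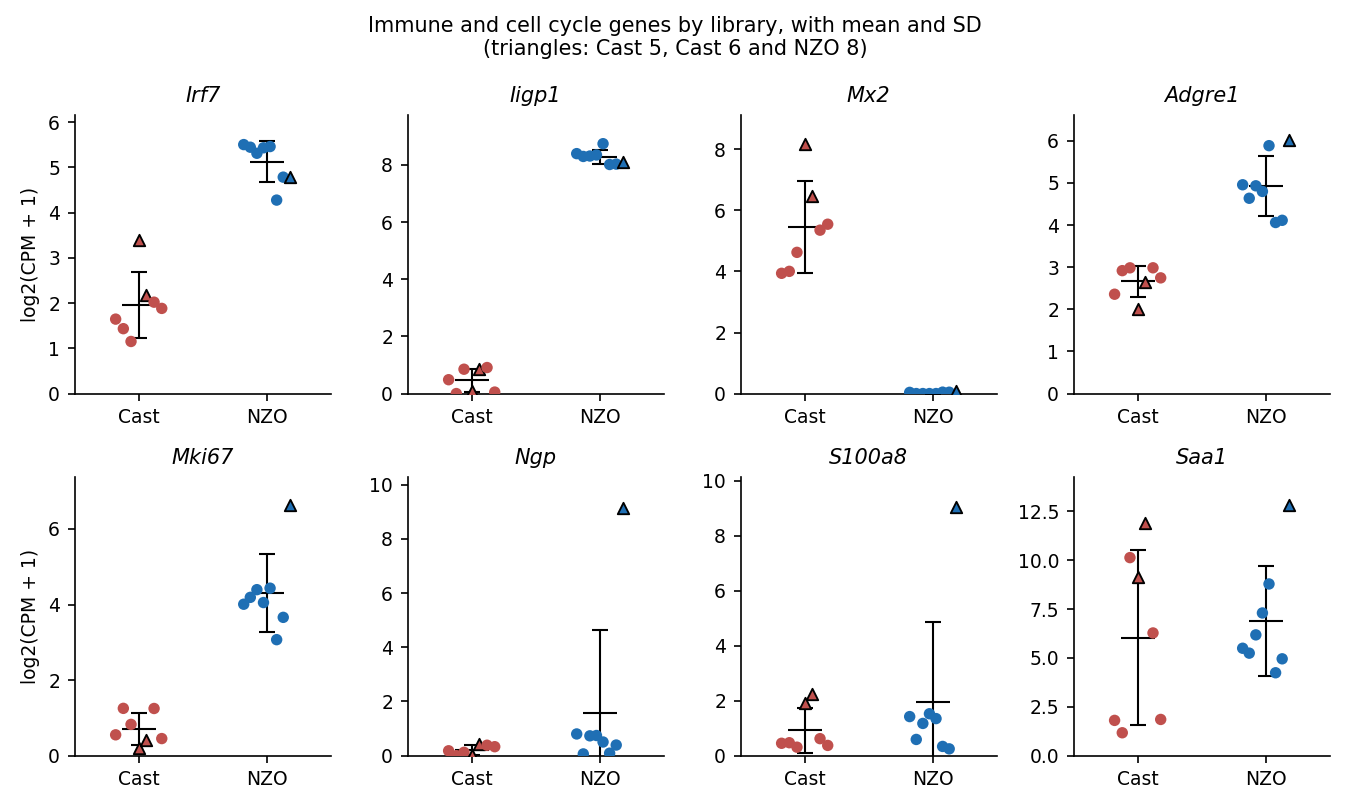
Level of 8 genes in each liver (y axis, log2 of CPM plus 1), Cast on the left and NZO on the right of each panel; bars give the mean and SD (n = 7 and 8) and triangles mark Cast 5, Cast 6 and NZO 8. Irf7, Iigp1, Adgre1 and Mki67 are lower in all Cast livers, Mx2 is higher in all, and Ngp and S100a8 are high in NZO 8 only.

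Genes of cholesterol synthesis were lower in Cast along nearly the whole pathway. Of 25 tested genes 23 were lower and 2 were not called, with a median difference of -1.49, and without Cast 5, Cast 6 and NZO 8 the count was 21. The summed level of the list was 622 to 1955 CPM in Cast livers and 1600 to 4016 CPM in NZO livers.

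In the mevalonate arm, Pmvk, phosphomevalonate kinase, was at 1.20, 2.90 and 4.24 CPM in Cast livers, against 12.7, 41.5 and 49.1 CPM in NZO livers. No Cast liver reached the lowest NZO liver, and the difference was -3.57 ± 0.38, adjusted p = 1.12e-11. Mvd, the next enzyme, was at 0.632, 1.54 and 4.05 CPM in Cast livers, against 4.49, 20.9 and 32.02 CPM in NZO livers (-3.15 ± 0.52, adjusted p = 6.89e-07), also without overlap. Mvk, the enzyme before Pmvk, was not called (adjusted p = 0.213). Hmgcs1, an early enzyme of this arm, differed by -1.78 ± 0.37.

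In the sterol arm, Sqle, squalene epoxidase, was at 1.36, 6.37 and 8.23 CPM in Cast livers, against 3.99, 47.7 and 89.96 CPM in NZO livers (-3.12 ± 0.77, adjusted p = 4.52e-04), and Cyp51, lanosterol demethylase, at 4.26, 7.12 and 19.8 CPM in Cast livers, against 26.4, 79.2 and 108 CPM in NZO livers (-2.87 ± 0.49, adjusted p = 1.77e-06). Cyp51 did not overlap and Sqle did. Dhcr7, a late reductase, differed by -2.15 ± 0.37. Among the regulators, Insig1, which holds SREBP in the endoplasmic reticulum, was at 29.00, 57.7 and 148 CPM in Cast livers, against 79.5, 316 and 482 CPM in NZO livers (-2.11 ± 0.30, adjusted p = 2.86e-08), and Srebf2, the gene of SREBP-2 itself, differed by -0.55 ± 0.15.

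With the letters TCACNCCAC for a sterol regulatory element, 1 of 17 cholesterol genes with a RefSeq promoter had a match in the 250 bases before its start (Hmgcs1), and 1 of 23 genes of fatty acid synthesis did (Mlxipl), against 346 of 32851 windows (1.053%). The stretch of Hmgcs1 (chr13:119690183-119690252, plus strand, GRCm38.p6) is shown with that of Mlxipl (chr5:135106724-135106793, plus strand), since Hmgcs1 was lower and Mlxipl higher in Cast; capitals mark the match. No match says only that these letters were not in the window. Genes and windows were counted as for the interferon element.
Hmgcs1: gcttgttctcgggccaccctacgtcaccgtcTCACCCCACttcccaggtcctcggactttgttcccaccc
Mlxipl: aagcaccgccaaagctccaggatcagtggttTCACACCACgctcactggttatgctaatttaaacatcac

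Genes of fatty acid and triglyceride synthesis were lower in Cast for 21 of 28 tested genes and higher for 3 (median -1.31). Acly, which makes cytosolic acetyl-CoA, was at 49.99, 162 and 346 CPM in Cast livers, against 178, 1444 and 2359 CPM in NZO livers (-2.96 ± 0.45, adjusted p = 1.08e-07). Fasn, fatty acid synthase, was at 223, 352 and 809 CPM in Cast livers, against 147, 3625 and 5763 CPM in NZO livers (-2.81 ± 0.48, adjusted p = 1.79e-06). Scd1, the stearoyl-CoA desaturase and one of the most abundant transcripts of the liver, was at 2539.9, 6524 and 9494 CPM in Cast livers, against 404, 39092 and 46601 CPM in NZO livers (-2.36 ± 0.48, adjusted p = 3.69e-05). All 3 overlapped between the strains. Without NZO 8 the ranges of Acly and Scd1 would not, and for Fasn NZO 6 lay inside the Cast range too. NZO 8 had 178 CPM of Acly, 147 of Fasn and 404 of Scd1. Without NZO 8 the differences were -3.10, -2.96 and -2.52.

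Elovl6, an elongase, differed by -3.24 ± 0.57, and the desaturases Fads1 and Fads2 by -1.35 ± 0.32 and -1.28 ± 0.31. Me1, which supplies NADPH, was at 43.5, 73.5 and 125 CPM in Cast livers, against 65.8, 598 and 864 CPM in NZO livers (-2.76 ± 0.39, adjusted p = 3.11e-08). Gpam, the first step of glycerolipid synthesis, and Mogat1, which esterifies monoacylglycerol, differed by -3.15 ± 0.40 and -5.78 ± 0.72, and the Mogat1 ranges did not overlap. Pnpla3, a lipid droplet protein whose human variant is linked to fatty liver, was at 0.150, 1.23 and 2.60 CPM in Cast livers, against 1.11, 100.8 and 297 CPM in NZO livers (-6.68 ± 1.05, adjusted p = 3.20e-07). Its NZO livers were far apart, with NZO 6 and NZO 8 at 2.19 and 1.11 CPM, inside the Cast range. Srebf1, the gene of SREBP-1, differed by -1.20 ± 0.29.

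Lpin1, Mlxipl and Dgat1 were the 3 that were higher. Lpin1, a phosphatidate phosphatase that also acts as a coactivator, was at 332, 717 and 1241 CPM in Cast livers, against 81.4, 119.98 and 242 CPM in NZO livers, without overlap (2.33 ± 0.41, adjusted p = 2.75e-06). Mlxipl, the gene of ChREBP, was at 150.04, 566 and 698 CPM in Cast livers, against 117, 263 and 319 CPM in NZO livers (0.86 ± 0.20, adjusted p = 2.28e-04). Pklr and Acly, 2 genes that ChREBP is known to drive, were lower, but its targets were not examined as a list. Dgat1 differed by 0.24 ± 0.09 and was not called without Cast 1 or without Cast 5.

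Lipid droplet genes and targets of the fat-storing factor PPAR gamma were lower for 14 of 23 tested genes and higher for 2 (median -0.49). Pparg itself was at 0.238, 0.479 and 0.854 CPM in Cast livers, against 6.48, 13.5 and 14.6 CPM in NZO livers, without overlap (-4.60 ± 0.48, adjusted p = 4.90e-12). Fitm1, which helps droplets to form, was at 0, 0.0298 and 0.259 CPM in Cast livers, against 2.97, 14.1 and 22.3 CPM in NZO livers (-7.68 ± 0.93, adjusted p = 4.41e-10), and Cd36, the fatty acid transporter, at 25.1, 91.3 and 125 CPM in Cast livers, against 165, 302 and 358 CPM in NZO livers (-1.88 ± 0.51, adjusted p = 0.00140). None of these 3 overlapped. Plin2, the main coat protein of droplets in hepatocytes, differed by -1.59 ± 0.26, and Cidec, Plin5 and Fabp4 were not called (adjusted p = 0.175, 0.731 and 0.718). Without Cast 1, Plin5 was called lower, at a log2 difference of -1.28. Pnpla2, the triglyceride lipase of the droplet, was at 68.9, 96.3 and 493 CPM in Cast livers, against 33.6, 38.1 and 46.9 CPM in NZO livers, all Cast livers above all NZO livers (2.03 ± 0.22, adjusted p = 3.67e-11), whereas G0s2, the inhibitor of that lipase, differed by -2.02 ± 0.47. Hsd17b11 was the other gene called higher, and its call ended without NZO 8, Cast 1 or Cast 2.

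**Figure D4:**
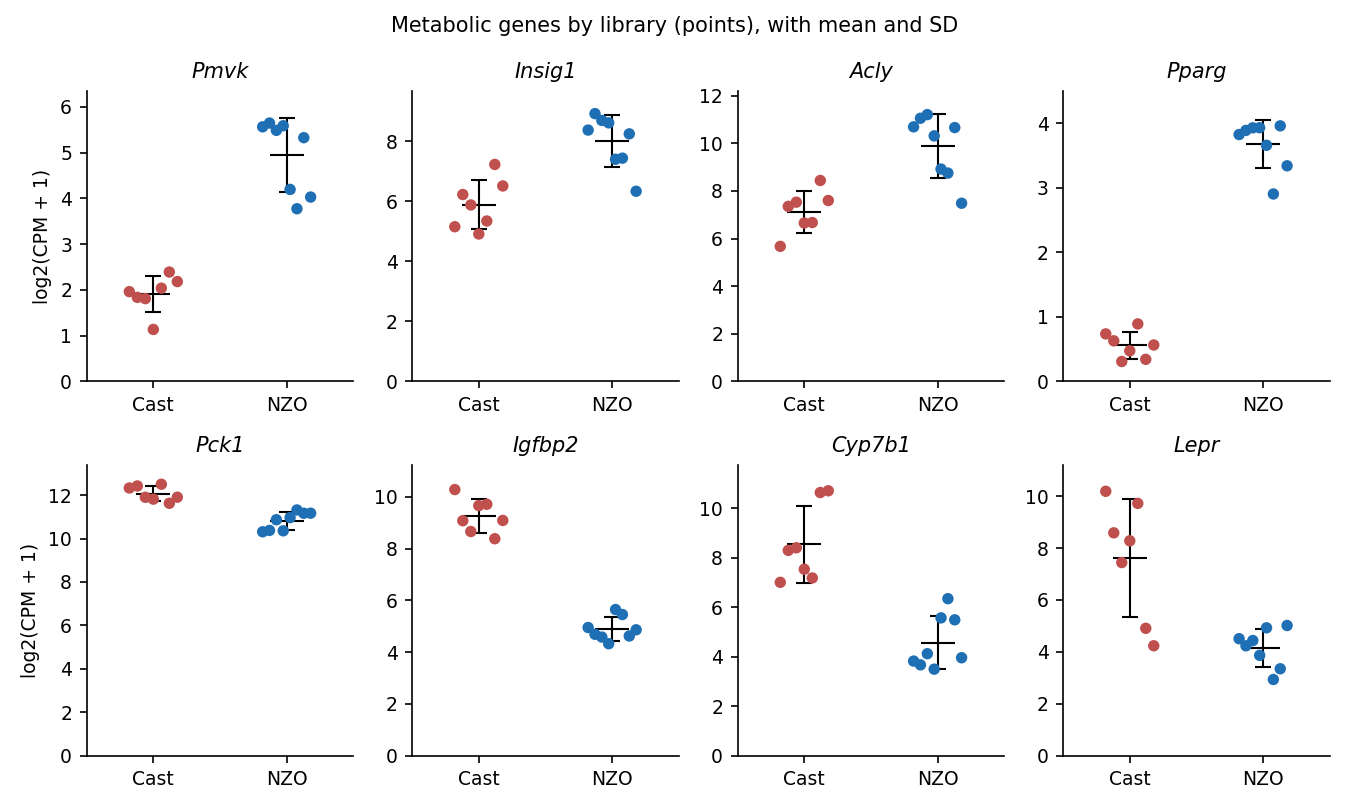
Level of 8 metabolic genes in each liver (y axis, log2 of CPM plus 1), Cast on the left and NZO on the right of each panel; bars give the mean and SD (n = 7 and 8). Pmvk, Insig1, Acly and Pparg are lower and Pck1, Igfbp2, Cyp7b1 and Lepr higher in Cast. Acly, Cyp7b1 and Lepr are widely scattered.

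Genes of fatty acid oxidation were lower in Cast for 22 of 40 tested genes and higher for 2 (median -0.57), with smaller differences than in synthesis. Of the 22, 8 were at least 2-fold lower. Vnn1, a pantetheinase, had the widest gap, at 0.389, 2.64 and 13.7 CPM in Cast livers, against 54.4, 129.7 and 182 CPM in NZO livers (-5.09 ± 0.74, adjusted p = 5.28e-08), without overlap. The mitochondrial enzymes Acads and Hadh differed by -1.04 ± 0.14 and -1.45 ± 0.20. Cpt1a, which gates entry of fatty acids into mitochondria, did not pass the test, at 591 ± 261 CPM in Cast and 556 ± 65.8 CPM in NZO (SD; adjusted p = 0.627). Ppara, the factor that drives the pathway, differed by -0.47 ± 0.19, a call that ended without Cast 5, Cast 6 or NZO 2. Cyp4a32, an omega-hydroxylase, was at 43.9, 195 and 443 CPM in Cast livers, against 4.37, 7.34 and 14.6 CPM in NZO livers, without overlap (4.73 ± 0.43, adjusted p = 7.87e-14). Its relatives Cyp4a10 and Cyp4a14 were not called (adjusted p = 0.610 and 0.591), although without Cast 1 Cyp4a14 was called lower, at -2.66 against -0.70, and reads of these close paralogs could have been split.

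Of the 5 tested genes of ketone body synthesis 3 were lower, Bdh1 among them. Bdh1, which makes beta-hydroxybutyrate, was at 30.6, 147 and 240.3 CPM in Cast livers, against 224, 307 and 330.1 CPM in NZO livers (-1.03 ± 0.22, adjusted p = 6.95e-05).

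Of 17 tested genes of gluconeogenesis and its control, 11 were higher in Cast and 2 lower, with a median difference of 0.38. Pck1, the committed step from oxaloacetate, was at 3157, 3833 and 5798 CPM in Cast livers, against 1271, 1932 and 2549.97 CPM in NZO livers, without overlap (1.24 ± 0.22, adjusted p = 3.48e-06). G6pc, which releases free glucose, was at 528, 1222 and 1558 CPM in Cast livers, against 372, 524 and 976 CPM in NZO livers (0.91 ± 0.27, adjusted p = 0.00384), and its transporter Slc37a4 was higher by 0.83 ± 0.16. Among the regulators, Ppargc1a, the coactivator PGC-1 alpha, was at 12.5, 37.4 and 108 CPM in Cast livers, against 8.45, 10.8 and 17.7 CPM in NZO livers (2.00 ± 0.34, adjusted p = 1.20e-06) and Foxo1 at 51.5, 70.3 and 161 CPM in Cast livers, against 30.6, 41.5 and 68.6 CPM in NZO livers (0.94 ± 0.21, adjusted p = 1.22e-04). Cast 1 and Cast 6 were the highest for Ppargc1a, at 108 and 86.7 CPM. Fbp1 and Pcx, both enzymes of the same pathway, were the 2 lower genes, with differences of -0.88 ± 0.18 and -0.58 ± 0.11.

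Glycolysis and glycogen genes were lower for 12 and higher for 4 of 26 tested (median -0.36), and with the 15 libraries alone 6 were lower. Pklr, the liver pyruvate kinase, differed by -1.30 ± 0.35. Pgk1, Pgam1, Tpi1 and Aldoa, enzymes of the middle of glycolysis that also run in reverse, were higher by 0.76, 0.46, 0.36 and 0.69, and Aldoa was not called without Cast 1 or Cast 5.

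Genes of insulin signalling and FoxO targets divided, with 10 higher and 7 lower of 26 tested, near the background in the lower direction. Igfbp1, a FoxO target that insulin represses, was at 261, 686 and 3854 CPM in Cast livers, against 89.03, 101.7 and 437 CPM in NZO livers (3.24 ± 0.59, adjusted p = 4.37e-06), and Irs2, the insulin receptor substrate that is also such a target, at 54.2, 77.99 and 373 CPM in Cast livers, against 20.7, 25.8 and 103 CPM in NZO livers (2.10 ± 0.41, adjusted p = 1.72e-05). Both overlapped, since NZO 8 was the highest NZO liver for each, at 437 and 103 CPM. Cast livers spread widely for Igfbp1, with Cast 1, 5 and 6 at 2003, 3854 and 3310.3 CPM. Insr, the insulin receptor, differed by -0.37 ± 0.07, and Akt2, its main kinase in liver, by 0.36 ± 0.05. Enho, which encodes adropin, a peptide linked to energy balance, was lower, at 0.210, 0.466 and 0.700 CPM in Cast livers, against 0.275, 1.40 and 27.5 CPM in NZO livers (-3.52 ± 0.63, adjusted p = 4.06e-06). Lepr, the leptin receptor, was at 17.8, 309.6 and 1165 CPM in Cast livers, against 6.65, 19.2 and 31.3 CPM in NZO livers (4.47 ± 0.78, adjusted p = 2.41e-06). Cast 7 and Cast 8, at 29.02 and 17.8 CPM, lay inside the NZO range, and the other 5 Cast livers lay above it.

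The growth hormone and IGF axis had 5 higher and 2 lower genes of 18 tested. In all 38.9% were called, against 59.0% over all genes tested. Without Cast 5, Cast 6 and NZO 8, 9 were higher and 1 lower. Igfbp2, a carrier of IGF that obesity is known to lower, was at 332, 542 and 1240.3 CPM in Cast livers, against 19.03, 26.4 and 49.04 CPM in NZO livers, with a wide gap between the strains (4.48 ± 0.28, adjusted p = 2.07e-20). Igf1 did not pass the test (524 ± 144 CPM in Cast, 599.8 ± 93.6 CPM in NZO; SD; adjusted p = 0.362). Ghr, the growth hormone receptor, differed by -0.62 ± 0.21, and Egfr, which growth hormone raises in liver, by 2.47 ± 0.56. Ghr was not called without Cast 5, Cast 6 and NZO 8, at a log2 difference of -0.40 (adjusted p = 0.087).

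Among 19 tested hepatokines, proteins by which the liver signals to other tissues, 6 were higher and 7 lower (median -0.15). In all 68.4% were called, against 59.0% over all genes tested, and neither direction was far from its background. Gdf15, a stress hormone that lowers appetite, was at 0.129, 1.51 and 2.47 CPM in Cast livers, against 5.01, 22.1 and 28.3 CPM in NZO livers, without overlap (-3.90 ± 0.53, adjusted p = 1.01e-08), and Inhbe, an activin subunit linked to fat storage, at 0.285, 14.6 and 33.6 CPM in Cast livers, against 34.1, 56.3 and 87.4 CPM in NZO livers (-2.08 ± 0.46, adjusted p = 9.97e-05). Fgf21 differed by -1.39 ± 0.58, a call that ended on leaving out any of 10 single livers. Fst, follistatin, which binds activins, was higher, at 3.25, 56.6 and 371 CPM in Cast livers, against 7.86, 24.96 and 37.9 CPM in NZO livers (2.31 ± 0.54, adjusted p = 2.14e-04), as were Fetub (1.48 ± 0.17) and Angptl4 (1.30 ± 0.19), an inhibitor of lipoprotein lipase. Without Cast 5, Cast 6 and NZO 8, Fst was not called, at a log2 difference of 0.66 (adjusted p = 0.262).

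Bile acid genes were higher for 10 and lower for 5 of 28 tested, and 6 of the 10 were enzymes of synthesis. In all 53.6% were called, against 59.0% over all genes tested, and the list's median difference was -0.05. With Xist as a covariate 11 were higher and 8 lower. Cyp7a1, the rate-limiting enzyme of the classical route, was at 54.5, 221 and 506 CPM in Cast livers, against 19.7, 55.7 and 64.4 CPM in NZO livers (2.31 ± 0.52, adjusted p = 1.37e-04). Cast 1 lay inside the NZO range, and Cast 5 and Cast 6 were the highest, at 482 and 506 CPM. Cyp7b1, of the alternative route, was at 127, 312 and 1657 CPM in Cast livers, against 10.3, 15.4 and 79.9 CPM in NZO livers, without overlap (4.39 ± 0.80, adjusted p = 5.07e-06), and Cyp39a1, which hydroxylates an oxysterol and was counted in the P450 list, at 13.6, 97.8 and 279 CPM in Cast livers, against 0.0459, 0.398 and 0.916 CPM in NZO livers, one of the widest gaps in the comparison (7.85 ± 1.01, adjusted p = 2.30e-09). Cyp27a1, Cyp8b1 and Cyp2c70 were higher by 0.97, 1.12 and 1.64, and Cyp8b1 was not called without Cast 1. Hsd3b7, Slc27a5 and Baat, which act later in synthesis and conjugation, differed by -0.36 ± 0.14, -0.50 ± 0.13 and -0.35 ± 0.16, and the calls of Hsd3b7 and Baat ended on leaving out any of 4 and any of 10 single livers. Among the transporters, Abcb11, the bile salt export pump, and Abcg5 and Abcg8, which export cholesterol into bile, were higher by 1.04, 0.78 and 1.51, the call of Abcg5 ending without Cast 2. Abcc3 and Abcc4, which send bile acids back into the blood, were lower, Abcc3 at 13.05, 19.3 and 65.01 CPM in Cast livers, against 75.7, 203 and 290.2 CPM in NZO livers (-2.88 ± 0.39, adjusted p = 1.00e-08) without overlap. The receptors Nr1h4 and Nr0b2, FXR and its target SHP, were not called (adjusted p = 0.848 and 0.238). The number lower was 3 without Cast 5, Cast 6 or NZO 6.

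Cytochrome P450 genes and the drug-sensing receptors had 11 higher and 7 lower of 44 tested, no more than the background in either direction, but with large differences in single genes. Cyp3a25 was at 703, 1965 and 3059.8 CPM in Cast livers, against 103, 274 and 512 CPM in NZO livers, without overlap (2.54 ± 0.27, adjusted p = 7.30e-12), and Por, the reductase that serves all microsomal P450s, at 212, 611 and 1800.2 CPM in Cast livers, against 132, 152 and 219 CPM in NZO livers (2.23 ± 0.37, adjusted p = 8.18e-07). Cyp2j5 was lower, at 15.9, 253 and 321 CPM in Cast livers, against 349, 629 and 693 CPM in NZO livers (-1.62 ± 0.26, adjusted p = 5.28e-07). The receptors Nr1i2 and Nr1i3, PXR and CAR, were not called (adjusted p = 0.676 and 0.909). With Xist as a covariate 12 were lower in place of 7.

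Conjugation enzymes were lower for 16 and higher for 10 of 44 tested. In all 59.1% were called, near the 59.0% over all genes tested. Sult1e1, which inactivates oestrogen and is known to rise in diabetic liver, was at 0.0382, 0.207 and 0.399 CPM in Cast livers, against 8.62, 25.3 and 87.03 CPM in NZO livers, without overlap (-7.17 ± 0.69, adjusted p = 3.99e-13). Gstt1 and Ugt3a2 differed by -4.25 ± 0.29 and -4.06 ± 0.29, and Gstm2 was higher, at 15.3, 35.5 and 114 CPM in Cast livers, against 3.32, 7.78 and 8.85 CPM in NZO livers (2.94 ± 0.31, adjusted p = 7.09e-12). Members of these families are close paralogs. Targets of NRF2, the factor of the antioxidant response, were lower for 10 and higher for 2 of 20 tested (1 higher without Cast 5 or without the 3 libraries), with Nfe2l2, its own gene, at 25.2, 49.96 and 63.7 CPM in Cast livers, against 65.7, 89.7 and 124 CPM in NZO livers (-0.91 ± 0.12, adjusted p = 6.67e-09) and Gclm, of glutathione synthesis, differing by -0.93 ± 0.09. Nqo1 and Hmox1, the targets most often used to read its activity, were not called (adjusted p = 0.326 and 0.207), and without NZO 8 Hmox1 was called higher.

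Lipoprotein genes were higher for 10 and lower for 9 of 32 tested, with a median of 0.00. In all 59.4% were called, near the 59.0% over all genes tested. Scarb1, the HDL receptor, and Apoa1, the main protein of HDL, were higher by 1.42 ± 0.17 and 0.84 ± 0.15. Apoa2, the second protein of HDL, and Pltp, which remodels it, were lower; Pltp was at 7.99, 16.4 and 22.7 CPM in Cast livers, against 21.2, 113 and 168 CPM in NZO livers (-2.70 ± 0.42, adjusted p = 1.82e-07) and Apoa2 differed by -0.96 ± 0.14. Apob was not called (adjusted p = 0.935).

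Genes of the urea cycle and amino acid breakdown were higher for 19 and lower for 5 of 43 tested (median 0.25). Cps1, the first step of the urea cycle, was at 5358, 8275 and 14890.00 CPM in Cast livers, against 2172, 3011 and 5647 CPM in NZO livers (1.47 ± 0.20, adjusted p = 6.91e-09). Asl and Ass1 of the same cycle were higher by 1.48 ± 0.23 and 0.51 ± 0.22, the call of Ass1 ending on leaving out any of 7 single livers, and Otc was not called (adjusted p = 0.529). Tat, which starts tyrosine breakdown, was at 1578, 4299 and 8923 CPM in Cast livers, against 815, 1570.4 and 1931 CPM in NZO livers (1.55 ± 0.31, adjusted p = 1.98e-05), and Ahcy, of the methionine cycle, at 785, 1270.3 and 3016 CPM in Cast livers, against 276, 349.99 and 593 CPM in NZO livers, without overlap (1.97 ± 0.20, adjusted p = 1.98e-12).

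Genes of oxidative phosphorylation encoded in the nucleus were higher for 31 and lower for 6 of 67 tested, mostly by small amounts (median 0.15). Cycs, cytochrome c, was the exception in size, at 126, 169 and 203 CPM in Cast livers, against 38.03, 54.04 and 58.1 CPM in NZO livers, without overlap (1.69 ± 0.11, adjusted p = 3.84e-20). Cycs has processed copies in the genome, among which reads could have been split. Atp5o and Cox5b, of ATP synthase and cytochrome oxidase, were higher by 0.68 ± 0.07 and 0.69 ± 0.08. Proteasome genes were higher for 21 of 31 tested, the other 10 not called (median 0.30), and genes of the endoplasmic reticulum stress and heat shock responses for 18 of 35, the other 17 not called (median 0.41). Both counts were smaller without the libraries that stood apart. Without Cast 5, Cast 6 and NZO 8, 5 proteasome genes were higher and 3 lower, and 4 stress genes were higher and 3 lower. Leaving out a single liver gave 2 lower stress genes without Cast 5 and 1 without Cast 1, NZO 6 or NZO 7. Hspa5, the chaperone BiP, was at 2991 and 1944 CPM in Cast 5 and 6, against 629 to 1002 CPM in the other Cast livers and 526 to 1263 CPM in NZO livers, and its call ended on leaving out any of 8 single livers. Creld2, a chaperone-like protein, was at 309.9 and 189.7 CPM in the same livers, against 21.4 to 41.6 CPM in the other Cast livers and 13.6 to 42.5 CPM in NZO livers.

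Ribosomal protein genes were higher for 64 of 76 tested and lower for 5, with a median difference of 0.41. A few members had differences far beyond the rest, and these have near-identical copies elsewhere in the genome. Rpl19, of the large subunit, was at 151, 169 and 218 CPM in Cast livers, against 4.25, 7.22 and 11.4 CPM in NZO livers (4.51 ± 0.17, adjusted p = 1.14e-29), while its copy Rpl19-ps11 was at 0.111, 0.366 and 1.09 CPM in Cast livers, against 126, 132 and 159.9 CPM in NZO livers. Gene and copy summed to 177 ± 22.7 CPM in Cast and 144 ± 10.3 CPM in NZO (SD, n = 7 and 8), a log2 ratio of means of 0.30. Rps13, of the small subunit, had the opposite pattern, at 5.53, 13.3 and 20.1 CPM in Cast livers, against 51.7, 58.5 and 74.96 CPM in NZO livers, with its copy Rps13-ps1 at 48.2, 70.2 and 95.02 CPM in Cast livers, against 0, 0.160 and 0.720 CPM in NZO livers. Their sum was 85.4 ± 19.4 CPM in Cast and 61.0 ± 7.69 CPM in NZO. Over the 5 pairs of ribosomal gene and copy, Rpl9, Rpl17, Rpl19, Rpl27 and Rps13, the sums differed by 0.26 to 0.49 on the log2 scale, in place of between -2.19 and 5.38 for the genes alone. The pairs were chosen after their values were seen.

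Rpl19 (chr11:98026710-98030492, plus strand) and the pseudogene Rpl19-ps11 (chr8:19492936-19493526, plus strand, GRCm38) matched over 591 bases of their GENCODE transcripts with 1 mismatch, 99.8% identity. The 51 bases around it are shown, with the differing base in capitals, because reads within the matched bases that miss this one cannot be assigned to either gene by sequence.
Rpl19: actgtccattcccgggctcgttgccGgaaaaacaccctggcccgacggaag
Rpl19-ps11: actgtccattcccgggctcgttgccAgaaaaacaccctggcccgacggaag

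The mitochondrial genome gave the same kind of pair. Of its 13 protein genes 8 were higher in Cast and 1 lower (5 higher without Cast 8), with a median of 0.34; mt-Nd2, a subunit of complex I, was at 4070.3, 4782 and 6314 CPM in Cast livers, against 1939.6, 2369 and 3355 CPM in NZO livers (1.04 ± 0.12, adjusted p = 1.37e-10). The 1 lower gene was mt-Co2, a core subunit of cytochrome oxidase, at 5.72, 11.6 and 24.3 CPM in Cast livers, against 1787, 2516 and 3205 CPM in NZO livers (-7.52 ± 0.34, adjusted p = 2.48e-26). Gm13341, a nuclear pseudogene of it on chromosome 2 (chr2:22587291-22587962, minus strand), was at 815, 1601 and 2428 CPM in Cast livers, against 0, 0 and 0.327 CPM in NZO livers. The sum of both was 1570 ± 572 CPM in Cast and 2443 ± 459 CPM in NZO (SD, n = 7 and 8), a log2 ratio of means of -0.64, against -7.52 for mt-Co2 alone. The reference transcripts were 95.9% identical, and 51 bases of each are shown with the 6 differing bases in capitals.
mt-Co2: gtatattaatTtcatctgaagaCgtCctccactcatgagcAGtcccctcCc
Gm13341: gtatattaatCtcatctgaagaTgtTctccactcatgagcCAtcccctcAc
Whether the reads were aligned to one reference genome or to the genome of each strain is not given in the sources used here. The fitted differences of these genes are therefore not read as differences in expression.

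**Figure D5:**
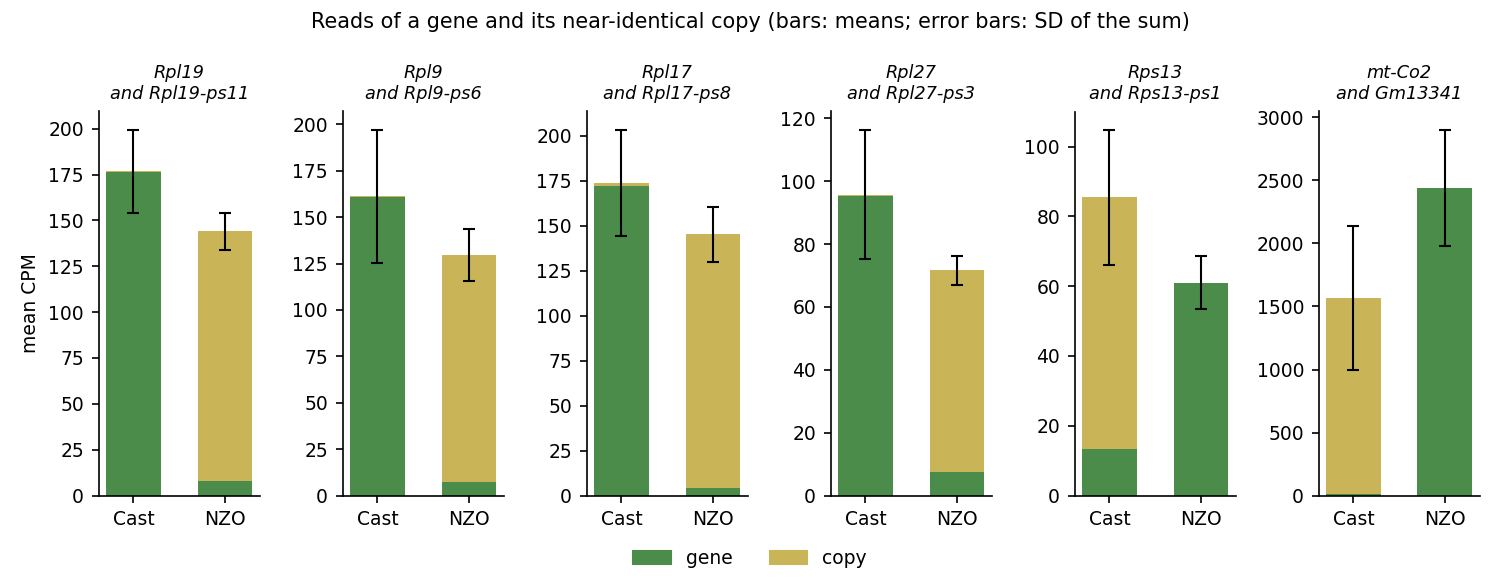
Stacked bars give the mean CPM of a gene and of its near-identical copy (y axis, CPM), with the Cast bar left of the NZO bar for each pair. Error bars are the SD of the sum (n = 7 and 8). In each pair one strain's reads fall mostly on the gene and the other's on the copy, while the total heights differ less than either part.

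Among other liver cells, 50% of stellate cell and fibrosis markers and 50% of bile duct markers were called, against 59.0% over all genes tested. For sinusoidal endothelium 70% were called, more of them lower than higher in Cast. Stellate cell and fibrosis markers were lower for 10 and higher for 4 of 28 tested. The fibrillar collagens Col1a1 and Col3a1 were lower, Col3a1 at 1.60, 10.7 and 24.8 CPM in Cast livers, against 24.9, 36.5 and 107 CPM in NZO livers, without overlap (-2.20 ± 0.35, adjusted p = 3.61e-07), while Lrat and Reln of resting stellate cells were not called (adjusted p = 0.336 and 0.149). Dcn, a proteoglycan of the matrix, was higher by 0.56 ± 0.08. Markers of sinusoidal endothelium were lower for 11 and higher for 3 of 20 tested, and 7 were lower without Cast 6; without the 3 libraries 7 were lower and 1 higher. Cd209b, a lectin of that endothelium, was at 0.958, 2.44 and 3.87 CPM in Cast livers, against 5.59, 8.94 and 13.2 CPM in NZO livers (-2.04 ± 0.22, adjusted p = 1.76e-11), and Stab2, a scavenger receptor, was not called (adjusted p = 0.454). Of 12 bile duct markers 4 were higher and 2 lower, and 2 were higher and 2 lower without Cast 5, Cast 6 and NZO 8. Krt19 was not called (adjusted p = 0.122). It was called higher when Cast 2 was left out or when libraries were scaled by their totals alone.

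Among 20 hepatocyte markers 12 were higher and 4 lower, with 7 and 2 from the 15 libraries alone. Serpina1a and Serpina1c, near-identical alpha-1-antitrypsin genes, differed by -4.51 ± 0.25 and -3.29 ± 0.52, yet the 5 genes of the family together were at 14284 ± 6236 CPM in Cast and 11752 ± 2553 CPM in NZO (SD). Alb was not called (adjusted p = 0.162). Of 32 hepatocyte transcription factors 11 were higher and 3 lower (1 without the 3 libraries), the higher including Esrra (0.68 ± 0.15), a regulator of mitochondrial genes, and Stat5b (0.61 ± 0.12), which carries the growth hormone signal. Genes that mark the zones of the lobule were higher for 8 and lower for 4 of 25 tested. Of these, 2 were lower without Cast 6 or without any of NZO 1 to 4. Of the transcription factors 43.8% were called and of the zone genes 48%, against 59.0% over all genes tested. Slc1a2 and Notum, which mark the cells around the central vein, were higher by 1.44 ± 0.18 and 1.54 ± 0.19, as was Cdh1 of the portal side (2.51 ± 0.30), whereas Cyp2e1 and Axin2 were not called (adjusted p = 0.896 and 0.679).

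Acute phase genes depended on which libraries entered. Of 28 tested 7 were higher and 6 lower; without NZO 8, 16 were higher and 3 lower; without Cast 6, 2 were higher; and without Cast 5, Cast 6 and NZO 8, 9 were higher and 11 lower. Serpina3k, a protease inhibitor of plasma, was higher under each of these and did not overlap, at 9633, 13437 and 18317 CPM in Cast livers, against 1173, 2264 and 3666 CPM in NZO livers (2.61 ± 0.29, adjusted p = 6.23e-11). Saa4, a constitutive member of the serum amyloid family, was lower, at 12.8, 55.00 and 164 CPM in Cast livers, against 139, 186 and 389 CPM in NZO livers (-1.78 ± 0.36, adjusted p = 2.68e-05). The fibrinogen genes Fga, Fgb and Fgg were higher by 0.68, 0.68 and 0.69, and none of them was called without Cast 6. Complement and coagulation genes were higher for 7 and lower for 8 of 39 tested, both below the background, and 14 were higher without the 3 libraries. C6 and C8b, of the membrane attack complex, were higher, C8b at 131, 418 and 1179.8 CPM in Cast livers, against 28.5, 58.05 and 163 CPM in NZO livers (2.79 ± 0.55, adjusted p = 2.00e-05), and F7, coagulation factor VII, was higher by 1.14 ± 0.19.

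Major urinary proteins, small carriers of pheromones made in the liver, were higher for 8 and lower for 2 of 19 tested. Mup17 was at 645, 5824 and 27655 CPM in Cast livers, against 0.790, 2.81 and 169 CPM in NZO livers (8.44 ± 1.36, adjusted p = 4.59e-07) and Mup15 at 35.9, 756 and 3067 CPM in Cast livers, against 0, 0 and 0.884 CPM in NZO livers (12.49 ± 1.33, adjusted p = 1.15e-11). Neither overlapped. Mup20, known as darcin, was lower, at 0, 0.673 and 1.87 CPM in Cast livers, against 3.95, 10.1 and 109 CPM in NZO livers (-5.55 ± 1.72, adjusted p = 0.00472). The family as a whole, whose members are nearly identical and whose split is uncertain, summed to 3247 to 58378 CPM in Cast and 634 to 20875 CPM in NZO, so the totals overlapped.

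Genes with a known sex bias were read beside Xist. Of 24 tested male-biased genes 10 were higher and 2 lower, and of 26 female-biased genes 3 were higher and 6 lower; the 3 became 1 when any of Cast 1 or 2 or NZO 4 to 8, or the 3 libraries that stood apart, were left out. With Xist as a covariate the counts were 12 and 5, and 8 and 13. C6, a male-biased gene, was at 25.7 to 33.4 CPM in the 3 Cast livers of high Xist and at 385 to 2491 CPM in the 4 of low Xist, against 25.01 to 27.9 CPM and 62.3 to 99.6 CPM in NZO livers of high and low Xist. Cyp2b13, a female-biased P450, had 6 reads over all Cast livers, high Xist or not, whereas NZO 1 to 4 were at 196 to 265 CPM. A1bg, also female-biased, was at 3.30 to 4.89 CPM in Cast livers of high Xist and 475 to 775 CPM in NZO livers of high Xist. Sult3a1, a sulfotransferase with the same bias, was higher in all Cast livers, at 334, 1326 and 2081 CPM in Cast livers, against 0.0982, 15.2 and 39.9 CPM in NZO livers (6.07 ± 1.95, adjusted p = 0.00633). Whether the 2 strains differ in sex bias was not tested.

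Iron, heme and metal genes were lower for 13 and higher for 4 of 31 tested (7 higher without NZO 8). Hamp2, a paralog of hepcidin, was at 0, 0.0643 and 1.22 CPM in Cast livers, against 20.8, 408 and 566 CPM in NZO livers, a gap of -9.63 ± 1.28, adjusted p = 5.30e-09, whereas Hamp, which encodes hepcidin, was not called (adjusted p = 0.298). Alad and Uros, of heme synthesis, differed by -1.47 ± 0.16 and -0.98 ± 0.08, both without overlap. Slc39a5, a zinc transporter, was at 0, 0.0643 and 0.179 CPM in Cast livers, against 2.98, 15.7 and 24.3 CPM in NZO livers (-7.22 ± 0.86, adjusted p = 2.99e-10). NAD genes were higher for 6 and lower for 5 of 19 tested (3 lower without any of Cast 1, 5 or 6 or NZO 2 or 4). In all 57.9% were called, near the 59.0% over all genes tested. Nnmt, which methylates nicotinamide, was higher by 2.21 ± 0.55 while Nnt, the mitochondrial transhydrogenase, differed by -1.06 ± 0.19. Of 22 clock genes 1, Noct, was called, lower at 51.4, 83.8 and 94.8 CPM in Cast livers, against 127, 156 and 238 CPM in NZO livers (-1.15 ± 0.29, adjusted p = 5.47e-04), and there were 3 lower and 1 higher without Cast 7 and 2 lower without the 3 libraries. Of 20 immediate early genes 3 were higher and 3 lower; without NZO 8, 5 were higher and all 3 lower calls were lost. Gadd45b, a stress-induced gene, was higher, at 0.421, 5.59 and 58.6 CPM in Cast livers, against 0.360, 1.10 and 2.15 CPM in NZO livers (3.72 ± 0.70, adjusted p = 9.25e-06), with Cast 1 at 58.6 CPM and Cast 7 and 8 inside the NZO range.

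The widest single differences were mostly presence against near absence of reads. The use of strain genomes is not given, so whether reads of either strain failed to align to such genes was not tested. Among genes of at least 5 CPM in one strain, the 12 with the largest lower differences included A4gnt, a glycosyltransferase, with 2 reads over all Cast livers and 25.7, 74.5 and 94.3 CPM in NZO livers, and Dct, dopachrome tautomerase, with 1 read and 7.23, 12.4 and 22.9 CPM. Ifi202b, an interferon-inducible DNA sensor, and Olfm3 had no read in any Cast liver and 5.08, 11.2 and 17.9 and 2.78, 5.60 and 11.99 CPM in NZO livers, at least 771-fold and at least 452-fold lower. Ly6d, a surface protein of lymphoid and epithelial cells, was at 0, 0.0643 and 0.150 CPM in Cast livers, against 9.82, 56.6 and 85.9 CPM in NZO livers (-9.87 ± 0.89, adjusted p = 5.55e-14). Wfdc17 and Fam19a2 each had 1 read in Cast, against 2.91, 5.35 and 24.2 and 0.196, 5.33 and 10.6 CPM in NZO.

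Among the 12 with the largest higher differences, Tas1r1, a taste receptor subunit, was at 24.7, 31.98 and 73.3 CPM in Cast livers, against 0, 0.117 and 0.229 CPM in NZO livers (8.38 ± 0.41, adjusted p = 7.88e-25), and Atp6v0a4, a proton pump subunit, at 6.96, 15.5 and 155 CPM in Cast livers, against 0.0322, 0.176 and 0.229 CPM in NZO livers (8.27 ± 0.58, adjusted p = 3.81e-18). Eno1b, at 113, 160.2 and 176 CPM in Cast livers, against 0, 0.319 and 1.05 CPM in NZO livers, is a near copy of Eno1, for which the strains differed by -0.23 ± 0.12 (adjusted p = 0.0825). Ces2b, a carboxylesterase, was at 6.89, 45.7 and 185 CPM in Cast livers, against 0, 0.121 and 0.644 CPM in NZO livers and Serpina3c at 0.289, 16.8 and 116 CPM in Cast livers, against 0, 0.0147 and 0.190 CPM in NZO livers. The other 6 strains had means of 0.0420 to 0.134 CPM for Tas1r1, so Cast was the one strain with a high level there. For Ifi202b the other strains had means of 0.0198 to 3.29 CPM. Among the most abundant genes called, Mug1, a plasma protease inhibitor, was higher by 1.37 ± 0.42, while Lars2 and AY036118 differed by -1.17 ± 0.39 and -2.63 ± 0.51.

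The mean of the other 6 strains gave each difference a position. It lay nearer NZO for 6308 of the 9531 called genes (66.2%) and nearer Cast for 3223. For cholesterol synthesis it lay nearer NZO for 22 of 23 called genes, and for cell cycle genes nearer Cast for 17 of 23. For interferon genes it lay nearer NZO for 30 of 46. Pmvk, for example, had means of 15.99 to 32.9 CPM in the other strains, against 2.86 CPM in Cast and 33.8 CPM in NZO, and Pparg had 0.230 to 11.8 CPM, against 0.491 CPM in Cast and 12.2 CPM in NZO. These positions are a description and were not tested. Calls were spread over the genome, with between 53.1% of tested genes called on chromosome 18 and 62.8% on chromosome 4 among the autosomes, and over levels, with 40.4% called among the 10% of genes of lowest level and 51.9 to 63.4% in the other 9 groups of the same size.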

How the data were processed

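Estimated counts per gene were deposited by the authors as 1 table, with 21% of the values not whole. The deposited log2-scale values are those of a variance-stabilising transformation by the authors, used here only in an alternative. Genome build GRCm38 and DESeq2 are named in the submitters' processing notes. No source used here gives the aligner, the counter, the use of strand or whether strain genomes were used. Per the labels' protocols, RNA was extracted with TRIzol and MagMAX reagents and polyadenylated RNA was made into libraries.

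The estimated counts were rounded and fitted for all 60 libraries with strain as the only factor in edgeR 4.0.16 (R 4.3.3; TMM, filterByExpr by strain, quasi-likelihood test), so that all 8 strains share the estimate of the spread. The Cast minus NZO contrast was adjusted by the Benjamini-Hochberg method over 16165 genes. The file was expected to hold whole counts. In the table, 1 column matched no sample and was not used. The labels do not say that libraries of a strain came from separate mice, so p-values reflect variation among libraries only, part of which may be technical. Alternatives used DESeq2 1.42.0, limma 3.58.1, other scalings and filters, and each library left out. The fitting script was tested on simulated data.

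The strain pair, the 45 gene lists and the tests were chosen with earlier results of these data known. Named genes were the 12 largest differences each way, without overlap and of at least 5 CPM, among protein-coding genes, the 12 most abundant called genes of at least 2-fold difference, and, in each list, the 4 called members of smallest p in its main direction, 2 in the other, and known regulators. Some genes that this rule names are not reported here. Other genes named, the pairs of gene and copy, and the alternatives without Cast 6 and without all 3 libraries that stood apart were chosen after their values were seen.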

Additional observations from a re-analysis of the deposited data

Results flagged for a closer look

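A library is listed here where it lay far from the other libraries of its strain by Dixon's criterion at the 95% level. Chance lists about 1 in 20 groups, and 67 of 447 groups of values were listed, a group being 1 gene or library measure in 1 strain. NZO 8 accounted for 46 of them. In the sentences that follow, each gene has in parentheses its CPM in the library named and then the median of the strain's other libraries.

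NZO 8 was high for genes of immune cells and neutrophils, Ccr2 (34.2, 4.12), Cd163 (92.7, 23.2), Cd4 (1.64, 0.645), Lcn2 (1139, 12.3), Ngp (566, 0.419), Nkg7 (4.93, 0.440), Ptprc (95.1, 25.4), S100a8 (525, 1.25), Trem2 (1.71, 0.440) and Wfdc17 (24.2, 5.20). It was high for cell cycle genes, Cdk1 (7.96, 1.26), E2f7 (3.25, 0.950), Mcm2 (10.5, 6.03), Mki67 (97.6, 15.6), Pcna (27.7, 18.4) and Top2a (42.6, 3.34). It was also high for Dcn (119, 82.9), Fgb (11296, 2821), Irs2 (103, 25.7), Orm2 (1500.3, 15.01) and Rpl19-ps11 (159.9, 132).

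NZO 8 was low for genes of lipid metabolism, Apoa2 (1244, 3082), Cyp4a10 (92.1, 731), Cyp4a14 (36.4, 546), Fads2 (162, 817), Fitm1 (2.97, 14.1), G0s2 (6.44, 54.97), Hadh (204, 378), Me1 (65.8, 717), Mlxipl (117, 274), Mogat1 (1.45, 17.6) and Scd1 (404, 44984). It was low for genes of bile acid and drug metabolism, Abcb11 (193, 399.8), Cyp27a1 (106, 186), Cyp3a25 (103, 276), Gclm (118, 154), Gstt1 (27.96, 184), Hsd3b7 (200.5, 263) and Nr1i3 (27.2, 112). It was low as well for A4gnt (25.7, 74.6), Alad (87.9, 133), Atp5o (70.2, 95.3), Cox5b (43.4, 64.9), Cycs (38.03, 55.2), Hamp2 (20.8, 455) and Otc (136, 383).

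Cast 1 was high for Abcc4 (6.56, 1.48) and Pnpla2 (493, 96.2). Cast 1 was low for Bst2 (18.7, 62.9) and Pklr (10.7, 125). Cast 5 was high for Fabp4 (27.98, 9.74), Irf9 (32.98, 13.4), Isg15 (1.83, 0.241), Mx1 (4.76, 0.950), Oas1b (2.01, 0.751) and Pgam1 (258, 202). Cast 5 was low for Srebf2 (20.9, 33.5). Cast 6 was low for Nfe2l2 (25.2, 50.1). Cast 7 was high for Mcm2 (5.66, 1.88). NZO 5 was low for Reln (47.6, 79.6). NZO 6 was high for Cps1 (5647, 2962), Serpina1a (3100.3, 1889), Serpina1c (6184, 2359) and Stat5b (88.5, 66.3). NZO 6 was low for Ly6d (9.82, 58.5). NZO 7 was low for Cyp7a1 (19.7, 58.4). NZO 3 was the deepest library, at 69169911 estimated counts (69.2 in units of 1000000).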

How the results depend on the processing

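With each of the 15 libraries left out in turn, 4359 to 4918 genes were higher and 4507 to 4901 lower in Cast, and the calls summed over the lists were 733 to 775, against 4593, 4938 and 765. Stricter rules gave fewer calls by construction. A test against a fold of 1.5 gave 1361 higher, 2567 lower and 395 in the lists, and asking for at least 2-fold gave 1310, 2632 and 394. With the replicate number as a block, in the 15 libraries alone, there were 2482 higher, 2917 lower and 487 in the lists. It ended the calls of Scd1, Sqle, Tat, Abcb11, Foxo1 and Mlxipl among others. The labels do not say that a number is shared, and the numbers were not taken as pairs: the correlation of same-numbered deviations from the strain means was between 0.16 and 0.32 in 5 of 7 pairs and at -0.09 and -0.16 in the others, and not every library correlated best with its own number. In both strains numbers 1 to 3 were of high Xist and 5 to 8 of low Xist. With the 15 libraries and no block there were 6804 calls. Scaling by library totals alone gave 5463 higher and 4183 lower, 56.6% of calls higher against 48.2%. DESeq2 gave 10192 calls, limma on the deposited log2 values 9526 and the Xist covariate 9870.

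The log2 difference of 28 named genes changed sign under at least 1 alternative. Hspa5 and S100a8 were called, at 0.57 and -5.75, and the other 26 were not called under the fit reported. Scaled by library totals alone, the fit put Apob at a log2 difference of 0.072, Bst2 at 0.047, Nr1h4 at 0.048, Oas1b at 0.024 and Pcna at 0.10. With Rn18s-rs5 left out, the fit put Apob at a log2 difference of 0.013 and Pcna at 0.024. Without Cast 5, Cast 6 and NZO 8, an alternative chosen after seeing the data, the fit put Apob at a log2 difference of 0.18, Axin2 at 0.14, Cd163 at 0.094, Clec1b at 0.010, Fabp4 at -0.17, Hspa5 at -0.16, Krt19 at -0.030, Lrat at 0.034 and Nr1h4 at 0.11. Otc was there at 0.072, Plin5 at 0.31, Reln at 0.058, Saa1 at 1.08, Saa2 at 1.75 and Stab2 at 0.16. Under the block, the fit put Cpt1a at a log2 difference of -0.041, Cyp2e1 at -0.068, Cyp4a10 at -1.14, Fabp4 at -0.030, Nr1i2 at -0.023, Saa2 at 0.025 and Xist at 0.36. By limma on the deposited values, the fit put Cpt1a at a log2 difference of -0.0048, Cyp2e1 at -0.082, Cyp4a10 at -1.33 and Fabp4 at -0.011. With Xist as a covariate, the fit put Cyp4a10 at a log2 difference of -0.34, Saa1 at 0.068, Saa2 at 0.070 and Xist at 0.088. With no filter on low counts, the fit put Pcna at a log2 difference of 0.0072. In the 15 libraries alone, the fit put Pcna at a log2 difference of 0.00059. By DESeq2, the fit put Pcna at a log2 difference of 0.0024 and S100a8 at 0.34. Over the leave-outs of a single library, or of Cast 5 and NZO 8 together, the log2 difference lay for Apob between -0.078 and 0.10, Axin2 between -0.39 and 0.058, Bst2 between -0.17 and 0.093, Cd163 between -0.52 and 0.23, Cidec between -0.59 and 1.46 and Cpt1a between -0.13 and 0.23. It lay for Cyp2e1 between -0.035 and 0.20, Cyp4a10 between -0.73 and 0.80, Fabp4 between -0.24 and 0.21, Lcn2 between -3.97 and 2.03, Nr1h4 between -0.14 and 0.093 and Nr1i2 between -0.034 and 0.21. For Nr1i3 it lay between -0.080 and 0.19, Oas1b between -0.49 and 0.013, Orm2 between -2.13 and 2.90, Otc between -0.30 and 0.030, Pcna between -0.085 and 0.11 and Plin5 between -1.28 and 0.082. For S100a8 it lay between -6.37 and 0.24, Saa1 between -1.76 and 2.90, Saa2 between -1.76 and 3.50 and Stab2 between -0.17 and 0.080. Without NZO 8 alone, Lcn2, Orm2, Saa1, Saa2 and S100a8 were at 2.03, 2.90, 2.85, 3.43 and 0.24, against -1.60, -0.30, -0.34, -0.34 and -5.75 with it. Cidec was at -0.59 without Cast 1, against 1.06 with it. The cause was not tested. Of the named genes called, 18 were no longer called in the 15 libraries alone, 31 under the block and 3 by DESeq2 (Baat, Ngp and S100a8). The number no longer called was 8 without Cast 5, 5 without NZO 8 and 9 without both. It was 15 without Cast 5, Cast 6 and NZO 8, with Fst, Ghr and Creld2 among them.

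Libraries differed in depth and in the share of Rn18s-rs5, and genes of few reads have wide errors. Levels at or below 3 counts over a strain give no fold. Reads of near-identical copies, overlapping genes and antisense pairs cannot be told apart here. Sex, age, weight and collection are not in the labels, so their part in any difference was not tested.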
